A study of Bos taurus with 4 samples.

Results

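The enzymes of fatty acid synthesis, elongation and desaturation build long-chain fatty acids from acetyl-CoA and then lengthen and unsaturate them. They are represented here by 10 genes, SCD, SCD5, FADS1, FADS2, FASN, ACACA, ELOVL5, ELOVL6, ACLY and ACSS2, chosen by gene symbol. All 35 non-control probes that the array's annotation gives one of these 10 symbols were taken, out of 43653 probes in all. In the cytosol, ACLY cleaves citrate and ACSS2 activates acetate to supply acetyl-CoA, ACACA carboxylates it to malonyl-CoA, and FASN joins these units into palmitate. ELOVL6 lengthens saturated and monounsaturated chains and ELOVL5 polyunsaturated ones. SCD and SCD5 place the delta-9 double bond that makes oleate, while FADS2 and FADS1 are the delta-6 and delta-5 desaturases of polyunsaturated fatty acids. In cattle the fat within muscle is known for its high share of oleate, and acetate is the main carbon source for fatty acid synthesis in ruminant fat tissue. The genes of this pathway are known targets of the transcription factor SREBP-1.

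The cells were bovine intramuscular preadipocytes, the precursors of the fat cells that lie between muscle fibres. Confluent cultures were switched to adipogenic medium at day 0. Cells of 3 groups were kept in it for 6 days, with ATRA (all-trans retinoic acid) at 1 µM, with 9cRA (9-cis retinoic acid) at 1 µM, or with no retinoid (day 6 control). The fourth group was harvested at day 0 and carried no treatment. All day 6 groups shared Dulbecco's modified Eagle's medium with 10% fetal bovine serum, insulin (50 ng/mL), dexamethasone (0.25 µM), octanoate (5 mM), acetic acid (10 mM), penicillin and streptomycin, renewed every 2 days. The medium thus held substrate for ACSS2, and no group was kept for 6 days outside it, so effects of the medium and of culture time cannot be told apart. ATRA and 9cRA are stereoisomers that differ in the geometry of a double bond. Retinoic acid receptors are known to bind either compound, and retinoid X receptors to bind 9cRA.

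Each group is 1 sample in the labels, hybridised on 3 one-colour arrays. Whether the 3 arrays held separate cultures is not given, so p-values reflect array-to-array spread that may be technical only. The 12 arrays lay on 3 slides: the day 0 arrays with day 6 control array 1, day 6 control arrays 2 and 3 with ATRA arrays 1 and 2, and ATRA array 3 with the 9cRA arrays. Between 64.8% and 74.0% of the probe spots per array were well above background. Of 9 stromal markers, 8 were well above background on every array, the exception being CD34, which was so with either retinoid only. Summed levels of a marker list are given as log2, and those of the stromal list ran from 7.28 to 7.44 with ATRA, 7.34 to 7.45 with 9cRA, 8.30 to 8.37 in day 6 control and 7.25 to 7.37 at day 0. The stromal sum followed its brightest gene, DCN, with means of 6.65 (ATRA), 6.69 (9cRA) and 7.33 (day 6 control). LUM and THY1 were also lower with each retinoid than in day 6 control. PDGFRA, PDGFRB, ENG, CD34, DLK1 and ZNF423 went the other way. ZNF423, for one, averaged -1.61 (ATRA), -1.69 (9cRA) and -3.64 (day 6 control). Of 7 fat cell markers, 4 were well above background on every array, the adipokine gene ADIPOQ was dim on all 12, and the summed levels ran from 5.12 to 5.16 with ATRA, 5.01 to 5.23 with 9cRA, 6.63 to 6.88 in day 6 control and 4.91 to 5.08 at day 0. FABP4, the brightest in day 6 control, averaged 1.33 with ATRA, 1.63 with 9cRA, 6.26 in day 6 control and 1.92 at day 0. PPARG averaged -0.51 with ATRA, -0.46 with 9cRA, -0.52 in day 6 control and -2.34 at day 0. CIDEC was lower in day 6 control (-4.71) than at day 0 (-1.87). In RNA of whole cultures, fewer cells of a type and less RNA per cell cannot be told apart. Muscle markers, 3 of 6 well above background on every array, ran from 4.28 to 4.31 with ATRA, 4.40 to 4.50 with 9cRA, 5.39 to 5.55 in day 6 control and 6.13 to 6.23 at day 0, with MYF5 below that limit on all 12. This sum followed DES, its brightest gene, with means of 4.07 (ATRA), 4.24 (9cRA), 5.38 (day 6 control) and 6.12 (day 0). MYOD1 went the other way, with means of 1.45 (ATRA), 1.51 (9cRA), 1.20 (day 6 control) and 1.02 (day 0). MYOG and MYH3 also had higher means in every day 6 group than at day 0. Blood and immune markers, 3 of 4 well above background on every array, ran from 2.00 to 2.08 with ATRA, 1.91 to 2.06 with 9cRA, 0.45 to 1.07 in day 6 control and 0.88 to 1.11 at day 0, with AIF1 dim on all 12. Endothelial markers, 2 of 4 on every array and PECAM1 on none, ran from -1.23 to -1.01 with ATRA, -1.51 to -1.15 with 9cRA, -2.74 to -2.28 in day 6 control and -3.09 to -2.87 at day 0. Epithelial markers, 1 of 3 on every array, ran from -1.51 to -0.87 over all groups. The part of these markers in the results was not tested.

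Signals below are log2 values relative to the array's 75th percentile, so a level of 0 is the signal that 75% of probes fall below. A gene was read from its brightest probe, and levels of different genes are not compared. Differences are log2 with the standard error (SE) of limma, fitted over 17736 genes, and a gene was called at a Benjamini-Hochberg adjusted p under 0.05. All 10 members were tested. Of their 35 probes, 34 passed the filter on dim signals, which asks for 3 arrays of some group well above background, and 29 were so on all 12 arrays.

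The probes that the results turn on are 60-base oligonucleotides. For SCD, SCD5, FASN and ELOVL6, the probe that lies farthest from the 3′ end of the transcript is shown. These genes were taken because they moved apart from each other. Each of these probes has a reading frame without a stop codon over its 60 bases, but so have 30 of the 35 member probes. An open frame thus does not show that a probe lies in coding sequence. The fifth probe is shown because it carries the symbol FADS2 but sits on another chromosome. Positions are on UMD3.1 as the array's annotation gives them. That annotation does not state exon, intron or untranslated region. Capitals mark codons for the histidine box HWYHH, a metal-binding motif of elongases.
SCD, chr26:21141840-21141899, minus strand: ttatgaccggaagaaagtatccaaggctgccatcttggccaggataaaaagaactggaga
SCD5, chr6:99278661-99278720, minus strand: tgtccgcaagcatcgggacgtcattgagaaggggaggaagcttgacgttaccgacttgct
FASN, chr19:51397328-51397505, plus strand: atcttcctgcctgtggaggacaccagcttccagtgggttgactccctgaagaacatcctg
ELOVL6, chr6:16507892-16507951, plus strand: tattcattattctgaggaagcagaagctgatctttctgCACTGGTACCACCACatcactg
FADS2 by symbol, chr14:39504978-39505037, plus strand: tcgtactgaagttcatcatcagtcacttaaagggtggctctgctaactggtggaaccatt

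The FASN probe spans 178 bases of the genome, so it crosses a gap in the alignment. The main FADS2 probe lies on chromosome 29 (41082177 to 41082236), as do both FADS1 probes. The FADS2 probe on chromosome 14 was well above background on 2 of 3 day 0 arrays and on no day 6 array, so it was not tested. The brightest SCD probe lies at chr26:21138077-21138136 and the brightest FASN probe at chr19:51403555-51403614. The brightest SCD5 probe was aligned over only 18 bases (chr6:99233263-99233280).

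The first comparison, day 6 control against day 0, describes 6 days in the adipogenic medium without retinoid. In it, 9 of the 10 members fell and SCD5 rose, and the arrays of the groups did not overlap for any member, where those of 67.5% of all genes tested did not. The median difference of the members was -1.11, against 0.00 over all genes tested. This comparison called 62.4% of all genes tested, 31.1% higher and 31.3% lower, so the number of members called is to be read against a high background.

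Among the genes of acetyl-CoA supply and chain synthesis, FASN had signals of 3.75, 3.90 and 4.03 in day 6 control, against 5.69, 5.61 and 5.67 at day 0. Every day 6 control array was thus below every day 0 array, 3.40-fold on average (-1.77 ± 0.09, adjusted p = 5.6e-08, limma). ACSS2 had signals of -1.33, -1.55 and -1.51 in day 6 control, against -0.29, -0.22 and -0.19 at day 0, a fall of 2.35-fold (-1.23 ± 0.08, adjusted p = 4.7e-07). ACACA, the enzyme that commits acetyl-CoA to fatty acid synthesis, fell 1.98-fold (-0.99 ± 0.13) and ACLY 1.52-fold (-0.61 ± 0.05). Levels of ACACA were -3.27 ± 0.12 in day 6 control and -2.28 ± 0.16 at day 0, and those of ACLY 2.91 ± 0.02 in day 6 control and 3.52 ± 0.07 at day 0 (SD, n = 3 arrays each).

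The delta-9 desaturases moved in opposite directions. SCD had signals of 4.23, 4.30 and 4.29 in day 6 control, against 5.84, 5.80 and 5.83 at day 0, 2.93-fold lower (-1.55 ± 0.05, adjusted p = 3.7e-09). SCD5 had signals of 1.62, 1.68 and 1.73 in day 6 control, against -0.11, -0.13 and -0.14 at day 0, 3.49-fold higher (1.81 ± 0.04, adjusted p = 2.9e-10). The arrays of a group lay close together for both genes, and the groups lay far apart. FADS2 had signals of 2.88, 2.87 and 2.71 in day 6 control, against 4.55, 4.57 and 4.46 at day 0, 3.27-fold lower (-1.71 ± 0.06). FADS1, its partner downstream in polyunsaturated fatty acid synthesis, was low in signal and more scattered, at -4.89, -4.08 and -4.40 in day 6 control, against -3.64, -3.86 and -3.58 at day 0 (-0.76 ± 0.22, adjusted p = 0.011). Of the elongases, ELOVL6 fell 2.38-fold (-1.25 ± 0.07) and ELOVL5 1.25-fold (-0.32 ± 0.05), the smallest change among the members. Within the slide that held both groups, the differences were -1.91 for FASN, -1.59 for SCD, 1.75 for SCD5, -1.65 for FADS2 and -1.18 for ELOVL6, each resting on day 6 control array 1 alone. That array stood apart, with 110 of the 191 outlier spots and the lowest share of spots well above background (64.8%, against 68.7% to 74.0% on the other 11). Without it the differences were -1.69 for FASN, -1.53 for SCD, 1.83 for SCD5, -1.74 for FADS2 and -1.28 for ELOVL6, and all 10 members were still called.

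**Figure D1:**
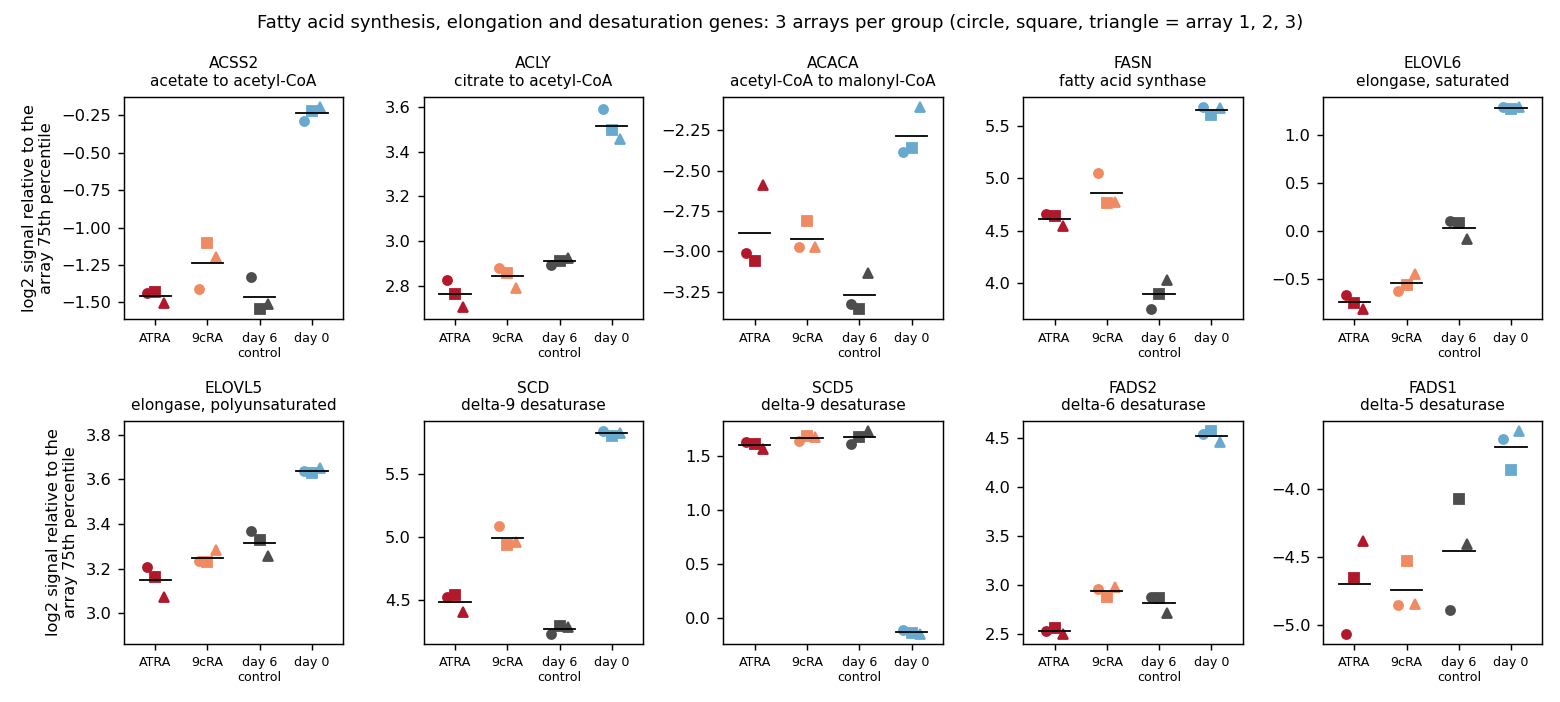
Log2 signal of the 10 members, relative to the array's 75th percentile, on each of the 3 arrays of ATRA, 9cRA, day 6 control and day 0, with bars at the group means and an axis range of its own in each panel. Day 0 lies highest for 9 members and lowest for SCD5, while the retinoid groups stand above day 6 control for FASN and SCD and below it for ELOVL6.

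With ATRA, the second comparison, FASN, SCD and ACACA rose against day 6 control, while ELOVL6, FADS2, ELOVL5 and ACLY fell. That made 7 of 10 members called, where 46.2% of all genes tested were called (23.8% higher and 22.4% lower). The median difference of the members was -0.11, against 0.05 over all genes. FASN had signals of 4.66, 4.64 and 4.54 with ATRA, against 3.75, 3.90 and 4.03 in day 6 control, 1.65-fold higher (0.72 ± 0.09, adjusted p = 8.7e-05). Its ATRA arrays lay between those of day 6 control and day 0. SCD had signals of 4.52, 4.54 and 4.40 with ATRA, against 4.23, 4.30 and 4.29 in day 6 control, a rise of 1.16-fold (0.22 ± 0.05, adjusted p = 0.0082). The groups did not overlap, but the call was lost when arrays were scaled to their median (0.16, adjusted p = 0.082).

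ELOVL6 had signals of -0.67, -0.75 and -0.82 with ATRA, against 0.10, 0.08 and -0.09 in day 6 control, 1.71-fold lower (-0.78 ± 0.07, adjusted p = 6.2e-06). ATRA thus left ELOVL6 farther from its day 0 level of 1.28 ± 0.01 (SD, n = 3 arrays), where FASN came nearer to its own. FADS2 had signals of 2.53, 2.56 and 2.50 with ATRA, against 2.88, 2.87 and 2.71 in day 6 control, 1.22-fold lower (-0.29 ± 0.06, adjusted p = 0.0020). SCD5 was not called, at -0.07 (95% interval -0.17 to 0.03), although its second probe (chr6:99233429-99233488) was lower with no overlap of arrays (-0.18, adjusted p = 0.017 over all probes). ACSS2 was not called either, at 0.01 (-0.18 to 0.19), and its second probe differed by 0.41 without a call. The calls of ACACA (0.39 ± 0.13, adjusted p = 0.032) and ELOVL5 (-0.17 ± 0.05, adjusted p = 0.016) were lost with slide as a block, at adjusted p = 0.19 for ACACA and adjusted p = 0.12 for ELOVL5. ACLY (-0.14 ± 0.05, adjusted p = 0.041) was called under 10 of 24 alternative settings. Within the slide that held 2 arrays of each group, the differences were 0.69 for FASN, 0.24 for SCD, -0.71 for ELOVL6 and -0.24 for FADS2.

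With 9cRA, the third comparison, FASN, SCD, ACACA and ACSS2 rose against day 6 control and ELOVL6 fell. These are 5 of 10 members, where 46.5% of all genes tested were called (24.8% higher and 21.7% lower), and the members' median difference of 0.06 was that of all genes (0.06). FASN had signals of 5.05, 4.76 and 4.78 with 9cRA, against 3.75, 3.90 and 4.03 in day 6 control, 1.96-fold higher (0.97 ± 0.09, adjusted p = 1.0e-05). SCD had signals of 5.09, 4.94 and 4.96 with 9cRA, against 4.23, 4.30 and 4.29 in day 6 control, 1.65-fold higher (0.72 ± 0.05, adjusted p = 2.2e-06). For both genes all 9cRA arrays lay above all day 6 control arrays. ELOVL6 had signals of -0.63, -0.57 and -0.45 with 9cRA, against 0.10, 0.08 and -0.09 in day 6 control, lower on every array (-0.58 ± 0.07, adjusted p = 5.7e-05).

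FADS2 was not called with 9cRA, at 2.96, 2.88 and 2.98 with 9cRA, against 2.88, 2.87 and 2.71 in day 6 control (0.12, 95% interval -0.00 to 0.25). SCD5 differed by -0.01 (-0.11 to 0.09), ACLY by -0.07 (-0.18 to 0.05) and ELOVL5 by -0.07 (-0.17 to 0.04). ACACA (0.35 ± 0.13) and ACSS2 (0.23 ± 0.08) were both at adjusted p = 0.046. Of 24 alternative settings, 8 called ACACA and 4 called ACSS2, and with slide as a block the difference of ACACA turned to -0.12 (adjusted p = 0.69). No slide held arrays of both 9cRA and day 6 control, so the blocked values pass through ATRA: 1.01 for FASN, 0.83 for SCD and -0.44 for ELOVL6, all 3 still called. FADS1 was not called with either retinoid in the fit without slide, but with slide as a block it was lower, by -0.62 with ATRA (adjusted p = 0.027) and by -0.98 with 9cRA (adjusted p = 0.036). Over the 24 alternative settings its difference ran from -0.62 to -0.02 with ATRA (1 setting called it) and from -0.98 to 0.06 with 9cRA (2 called it).

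**Figure D2:**
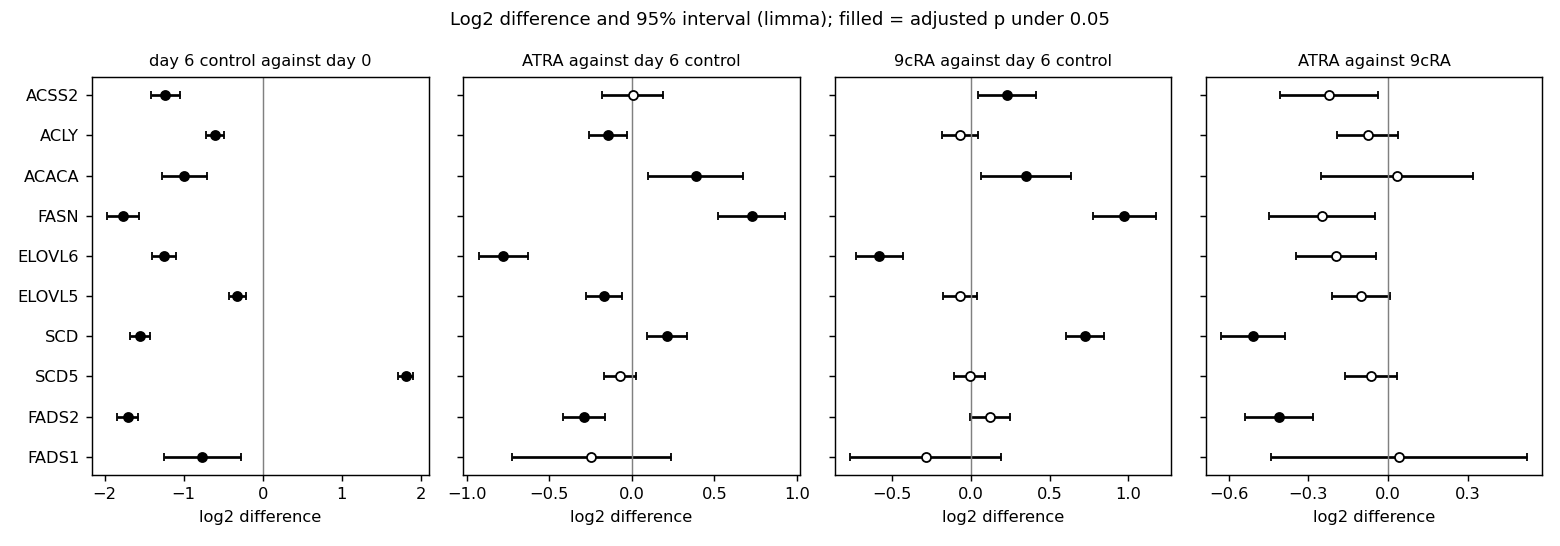
Log2 differences of the 10 members (points) with 95% intervals (bars) in 4 comparisons, each panel with its own horizontal scale. Filled points were called, and in the panel of ATRA against 9cRA only SCD and FADS2 are filled, both below 0.

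The fourth comparison set ATRA directly against 9cRA, a single pair of compounds at the same dose and time. SCD and FADS2 were lower with ATRA than with 9cRA, 2 of 10 members, where 0.118% of all genes tested were called (0.062% higher and 0.0564% lower). SCD had signals of 4.52, 4.54 and 4.40 with ATRA, against 5.09, 4.94 and 4.96 with 9cRA, 1.42-fold lower (-0.51 ± 0.05, adjusted p = 0.013). FADS2 had signals of 2.53, 2.56 and 2.50 with ATRA, against 2.96, 2.88 and 2.98 with 9cRA, 1.33-fold lower (-0.41 ± 0.06, adjusted p = 0.039). In both genes every ATRA array lay below every 9cRA array, and within the slide that held ATRA array 3 and the 9cRA arrays the differences were -0.59 for SCD and -0.44 for FADS2. These calls lie near the threshold. SCD was called under 19 of 24 alternative settings (adjusted p from 0.0034 to 0.20) and FADS2 under 7 (adjusted p from 0.021 to 0.39), with differences from -0.59 to -0.46 for SCD and from -0.65 to -0.39 for FADS2. For FADS2, the -0.65 and the adjusted p of 0.39 came from the mean over a gene's probes, which takes in the dim probe on chromosome 14. Leaving out ATRA array 2 or 3 or 9cRA array 2 ended both calls.

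The other 8 members were not called between the stereoisomers. FASN differed by -0.25 (95% interval -0.45 to -0.05), ELOVL6 by -0.20 (-0.35 to -0.05) and ACSS2 by -0.22 (-0.41 to -0.04), and for these 3 the arrays did not overlap, nor did they for ELOVL5 and SCD5. With SCD and FADS2 that made 7 of 10 members, where the arrays of 16.5% of all genes tested did not overlap. One ELOVL6 probe (chr6:16508313-16508372) went the other way, higher with ATRA by 0.33 (0.09 to 0.58) with no overlap and no call. The intervals, which are not adjusted for the number of genes, allow FASN to be up to 0.45 lower with ATRA. SCD5 differed by -0.06 (-0.16 to 0.03), ACLY by -0.08 (-0.19 to 0.04), ELOVL5 by -0.10 (-0.21 to 0.01), ACACA by 0.03 (-0.25 to 0.32) and FADS1 by 0.04 (-0.44 to 0.52).

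Only 21 genes were called between ATRA and 9cRA, 10 of them lower with ATRA, and the other genes named here were chosen after their values were seen. INSIG1, which encodes a protein that holds SREBP precursors in the endoplasmic reticulum, differed by -0.42 ± 0.06 (adjusted p = 0.038). HMGCS1, an enzyme of the mevalonate pathway, differed by -0.43 ± 0.06 (adjusted p = 0.039) and NSDHL, an enzyme of late cholesterol synthesis, by -0.34 ± 0.05 (adjusted p = 0.045). The others lower with ATRA were the immediate early genes EGR1 (-1.04 ± 0.10) and IER2 (-0.46 ± 0.07), PGR, FCGR2B and a transcript without a symbol. PGR was well above background on all 9cRA arrays and no ATRA array, and FCGR2B on no array of either group.

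Against day 0, the retinoid groups stood lower for the same 9 members and higher for SCD5, all called in both comparisons. With ATRA 71.5% of all genes tested were called (38.7% higher and 32.8% lower), and with 9cRA 71.3% (39% higher and 32.3% lower). These comparisons share the day 0 arrays with the first one. SCD was -1.34 ± 0.05 with ATRA and -0.83 ± 0.05 with 9cRA against day 0, and FASN -1.04 ± 0.09 with ATRA and -0.79 ± 0.09 with 9cRA. With 9cRA the 5 FASN probes, each tested on its own, ran from -1.20 to -0.24 against day 0. The FASN probe printed above was the smallest of these, was not called and had overlapping arrays. ELOVL6 stood 4.08-fold lower with ATRA and 3.56-fold lower with 9cRA than at day 0, and FADS2 3.99-fold lower with ATRA and 3.00-fold lower with 9cRA. SCD5 was 3.33-fold higher with ATRA and 3.48-fold higher with 9cRA, beside 3.49-fold in day 6 control. No slide held a retinoid array and a day 0 array.

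The probes of a member were also tested one by one, adjusted over all probes. After 6 days, all 7 SCD probes, all 5 FASN probes and all 5 ELOVL6 probes fell and all 3 SCD5 probes rose, and of the 34 probes tested 29 fell, 3 rose and 2 were not called, where 33.1% of all 31207 probes fell and 28.6% rose. All 5 FASN probes rose with each retinoid, by 0.72 to 0.84 with ATRA and by 0.97 to 1.21 with 9cRA. All 5 ELOVL6 probes fell with each, by -0.81 to -0.35 with ATRA and by -0.79 to -0.47 with 9cRA. All 7 SCD probes rose with 9cRA, by 0.41 to 0.81, while 3 of 7 rose with ATRA, where the differences ran from 0.12 to 0.39. Of 3 ACACA probes 1 rose with each retinoid, and none of the 4 ACLY probes was called with ATRA (-0.27 to -0.14). With ATRA 9 of the 34 probes rose and 9 fell, where 21.9% of all probes rose and 21.5% fell, and with 9cRA 13 rose and 5 fell, where 22.7% rose and 20.9% fell. Between the compounds, 4 of 7 SCD probes were called lower with ATRA and all 7 differed by -0.56 to -0.29 with no overlap of arrays, where 0.0513% of all probes were called lower and 16.5% did not overlap. The SCD5 probe printed above was well above background on all day 6 arrays and no day 0 array, so only a bound holds there: it was at least 2.29-fold higher in day 6 control than at day 0.

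**Figure D3:**
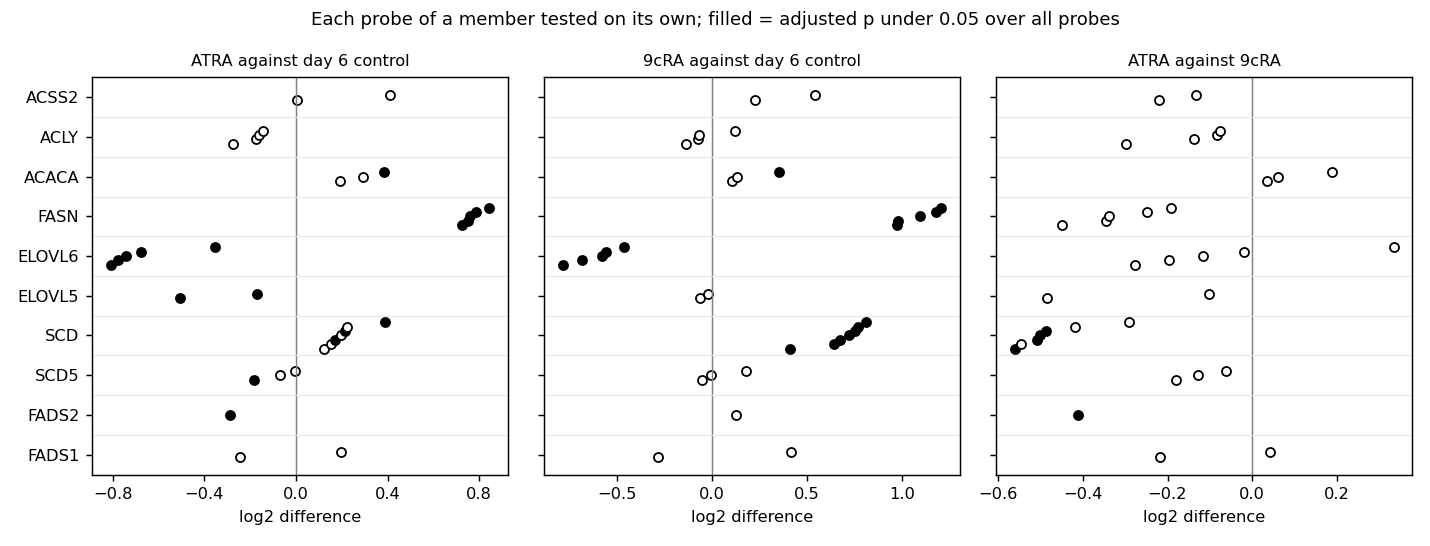
Log2 difference of every tested probe of each member in 3 comparisons, filled where the probe was called, with a horizontal scale of its own in each panel. The FASN probes lie together above 0 with both retinoids, the ELOVL6 probes below 0, and the 7 SCD probes farther from 0 with 9cRA than with ATRA.

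Some probes of a gene disagreed. The ACLY probe farthest from the 3′ end (chr19:42727131-42727190) differed by 0.21 between day 6 control and day 0 and was not called, while the other 3 ACLY probes fell by -0.67 to -0.48. Its signals were -3.92, -2.27 and -3.80 in day 6 control, against -3.70, -3.73 and -3.19 at day 0. The positive difference thus came from day 6 control array 2, and arrays 1 and 3 lay below all day 0 arrays. The second ELOVL5 probe (chr23:25156941-25157000) differed by -0.10 over the 6 days and was not called, but fell by -0.51 with ATRA, where the brightest probe fell by -0.17. The second ACSS2 probe was well above background at day 0 and on no day 6 control array, at least 2.38-fold lower in day 6 control. The second FADS1 probe, well above background on 1 of 3 ATRA, 2 of 3 9cRA, 1 of 3 day 6 control and 3 of 3 day 0 arrays, differed by 0.20 with ATRA and 0.42 with 9cRA, against -0.25 (ATRA) and -0.29 (9cRA) for the brightest, none of them called. Probes of a gene are not independent, since all of them read the same RNA on the same arrays. In addition, 7 pairs among the 35 shared bases. The brightest SCD probe shared 50 bases with another, and the brightest ELOVL6 probe shared 50 bases with a neighbour that differs from it at C33T and C41T, counted from the 5′ end of the brightest probe.

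Genes around the enzymes were described by lists, chosen with earlier results of these data known, and their counts stand beside the shares of all genes tested: 31.1% rose and 31.3% fell after 6 days, 23.8% rose and 22.4% fell with ATRA, and 24.8% rose and 21.7% fell with 9cRA. Of 17 tested genes of SREBP and LXR control, 6 rose and 5 fell after 6 days, close to those shares. In this list 7 rose and 4 fell with ATRA, and 8 rose and 2 fell with 9cRA, with medians of 0.25 (ATRA) and 0.24 (9cRA), against 0.05 (ATRA) and 0.06 (9cRA) over all genes. SREBF1, which encodes SREBP-1, had signals of -0.96, -1.15 and -0.91 in day 6 control, against 0.28, 0.36 and 0.38 at day 0 (-1.35 ± 0.08, adjusted p = 1.3e-07). It was at -0.68, -0.61 and -0.64 with ATRA (0.36 ± 0.08 over day 6 control) and at -0.29, -0.50 and -0.52 with 9cRA (0.57 ± 0.08), above all day 6 control arrays in each case. The group means of SREBF1 thus had the same order as those of FASN, SCD and ACSS2, but not as those of the other members. Between ATRA and 9cRA, SREBF1 was not called (-0.21 ± 0.08, adjusted p = 0.38, limma), and neither were FASN and ACSS2. SREBF2, which encodes the SREBP of cholesterol synthesis, differed by 0.06 ± 0.08 over the 6 days and rose with ATRA (0.25 ± 0.08) and 9cRA (0.30 ± 0.08), but its 4 probes disagreed in sign with each retinoid.

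INSIG1 fell by 2.12 on the log2 scale over the 6 days, fell again with ATRA (-0.43 ± 0.06, its other probe 0.04) and differed by -0.01 ± 0.06 with 9cRA. MID1IP1, known from mouse as an activator of acetyl-CoA carboxylase, had signals of 1.35, 1.42 and 1.47 in day 6 control, against 3.05, 3.03 and 2.90 at day 0 (-1.58 ± 0.07). With ATRA it was at 2.95, 2.83 and 2.81 (1.45 ± 0.07 over day 6 control) and with 9cRA at 2.93, 3.03 and 3.12 (1.61 ± 0.07). Against day 0 it was called with neither retinoid (-0.13 ± 0.07 with ATRA and 0.03 ± 0.07 with 9cRA). MLXIPL, which encodes the carbohydrate-responsive factor ChREBP, rose in all 3 comparisons, by 0.96 ± 0.13 over the 6 days, 1.05 ± 0.13 with ATRA and 0.94 ± 0.13 with 9cRA, but only 2 of 3 day 6 control arrays and 2 of 3 day 0 arrays were well above background. NR1H3, which encodes the oxysterol receptor LXR alpha, rose by 0.43 ± 0.08 over the 6 days and was called with neither retinoid. USF1, a transcription factor that binds the FASN promoter in mouse, rose by 0.92 ± 0.08 with ATRA and 0.68 ± 0.08 with 9cRA, and SCAP, the SREBP escort protein, fell by 0.58 on the log2 scale with 9cRA, though its 3 probes ran from -0.58 to 0.41. THRSP, a lipogenic gene of the MID1IP1 family, had 4 probes, none of which passed the filter on dim signals.

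**Figure D4:**
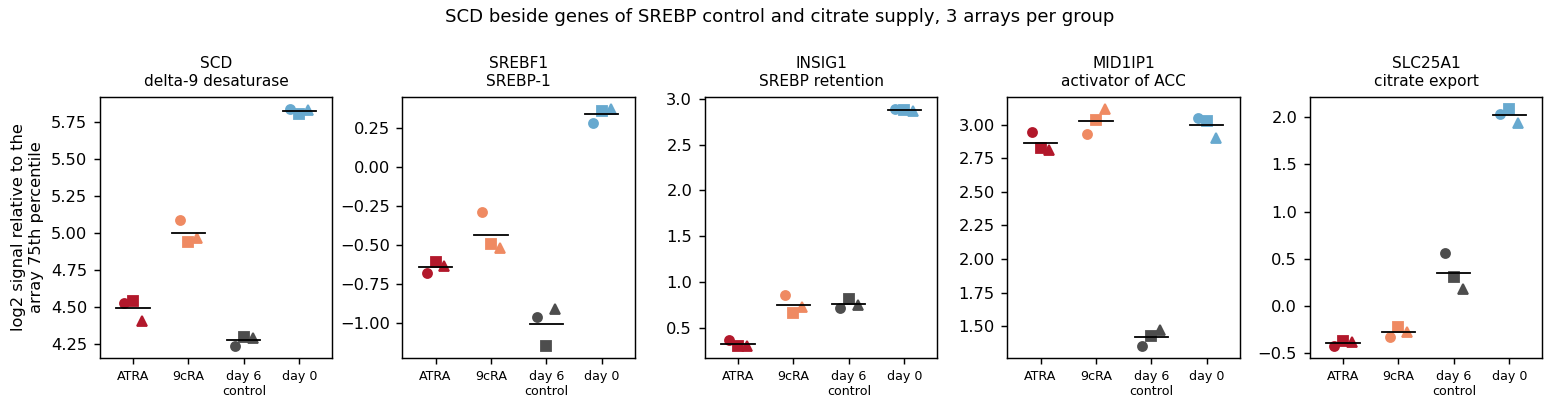
Log2 signal of SCD, SREBF1, INSIG1, MID1IP1 and SLC25A1 on each array of ATRA, 9cRA, day 6 control and day 0, with bars at the group means and an axis range of its own in each panel. The group means of SREBF1 have the order of those of SCD, but SREBF1 was not called between ATRA and 9cRA. INSIG1 and SLC25A1 have their lowest means with ATRA, and MID1IP1 is near its day 0 level with both retinoids.

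Of 17 genes that supply citrate and NADPH, 12 fell and 2 rose over the 6 days, where 31.3% of all genes fell and 31.1% rose, and their median was -0.78, against 0.00 over all genes. SLC25A1, which exports citrate from mitochondria, had signals of 0.57, 0.31 and 0.18 in day 6 control, against 2.04, 2.09 and 1.94 at day 0 (-1.67 ± 0.09, adjusted p = 7.1e-08). It fell further with ATRA (-0.74 ± 0.09) and 9cRA (-0.63 ± 0.09), in the direction of ELOVL6 and not of FASN. TKT, of the pentose phosphate pathway, fell over the 6 days (-1.17 ± 0.05) and rose with ATRA (0.38 ± 0.05) and 9cRA (0.44 ± 0.05). ME2, a mitochondrial malic enzyme, did the reverse (1.02 ± 0.05 over the 6 days, -0.93 ± 0.05 with ATRA and -0.88 ± 0.05 with 9cRA). The cytosolic malic enzyme ME1 was called in none of these 3 comparisons. With ATRA 5 of the 17 rose and 6 fell (23.8% and 22.4% of all genes), and with 9cRA 5 rose and 7 fell (24.8% and 21.7% of all genes).

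Other enzymes of the elongation cycle, 8 of them tested, had 3 higher and 2 lower after 6 days, where 62.4% of all genes were called. With each retinoid 1 was higher and 6 were lower, where 22.4% (ATRA) and 21.7% (9cRA) of all genes were lower. Their median was -0.44 with ATRA and -0.38 with 9cRA, against 0.05 (ATRA) and 0.06 (9cRA) over all genes. ELOVL7, an elongase, fell by -1.44 ± 0.08 with ATRA and -1.36 ± 0.08 with 9cRA, HACD2, a dehydratase of the cycle, by -1.04 ± 0.05 with each, and HACD3, another dehydratase, rose by 0.61 ± 0.05 with ATRA and 0.67 ± 0.05 with 9cRA. HSD17B12, the reductase that follows condensation, fell over the 6 days (-1.08 ± 0.09). Of 9 other desaturases and electron donors, 2 rose and 5 fell over the 6 days, 1 rose and 5 fell with ATRA, and 2 rose and 5 fell with 9cRA, where 62.4% (6 days), 46.2% (ATRA) and 46.5% (9cRA) of all genes were called. FADS3, a relative of FADS1 and FADS2, fell in all 3 comparisons (-0.61 ± 0.05 over the 6 days, -0.97 ± 0.05 with ATRA and -0.86 ± 0.05 with 9cRA), as did DEGS1, the dihydroceramide desaturase (-0.54 ± 0.07 with ATRA), and CYB5R3, a cytochrome b5 reductase (-0.49 ± 0.09 with ATRA). FADS6, not well above background at day 0, was at least 3.93-fold higher in day 6 control.

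Acyl-CoA synthetases, which activate fatty acids for use in lipids or for oxidation, had 3 of 8 higher and 2 lower after 6 days, and 3 higher and 1 lower with each retinoid, near the shares called of all genes (62.4% after 6 days, 46.2% with ATRA and 46.5% with 9cRA). ACSL1 fell over the 6 days (-1.31 ± 0.05) and rose with ATRA (0.99 ± 0.05) and 9cRA (1.02 ± 0.05), as FASN and SCD did, and its 6 probes ran from -1.40 to -1.31 over the 6 days, 0.99 to 1.09 with ATRA and 0.96 to 1.12 with 9cRA. ACSL4, which prefers arachidonate, rose with ATRA (0.95 ± 0.07) and 9cRA (1.04 ± 0.07). ACSL6, not well above background at day 0, was at least 11.4-fold higher in day 6 control. Of 11 other carboxylases and synthesis enzymes, 2 rose and 2 fell after 6 days, 2 rose and 3 fell with ATRA, and 3 rose and 2 fell with 9cRA. After 6 days that is a smaller share than the 62.4% called of all genes, and with the retinoids it is near the 46.2% (ATRA) and 46.5% (9cRA) called. The mitochondrial acetyl-CoA synthetase ACSS1 rose by 1.10 ± 0.08 with ATRA and 1.06 ± 0.08 with 9cRA, where cytosolic ACSS2 differed by 0.01 with ATRA and 0.23 with 9cRA. ACSS3, a mitochondrial acyl-CoA synthetase, rose over the 6 days (1.63 ± 0.06) and ACSF3, the malonyl-CoA synthetase, fell (-1.22 ± 0.07). ACACB, the carboxylase associated with mitochondria, rose with 9cRA (0.36 ± 0.13, adjusted p = 0.042) and was not called in the other 2 comparisons.

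Likeness over the 12 arrays was described by Pearson's r, with no test, since the arrays share groups and slides. Over 11805 genes with a symbol, those most like SCD included PHF23 (r = 0.982) and SREBF1 (0.975). Those most like FASN were DPYSL2 (0.988), ZBTB2 (0.981) and SLC26A11 (0.981), and those most like SCD5 were GPM6B (0.999), CA13 (0.998) and ANKRD37 (0.998). SCD5 was not called between any of the day 6 groups, so its r mostly follows the step from day 0 to day 6. GPM6B fell with ATRA (-0.45 ± 0.05) and 9cRA (-0.25 ± 0.05), where SCD5 was not called. At day 0 GPM6B averaged -8.36, under the lowest signal well above background on those arrays. Among the members, ELOVL6 and ELOVL5 went together most closely (0.981), FASN was close to SCD (0.955) but less so to ELOVL6 (0.573), and SCD5 ran against FADS2 (-0.973) and SCD (-0.892). In the authors' deposited table of log2 values, centred on each probe's median, SCD stood at -0.25 (ATRA), 0.26 (9cRA), -0.47 (day 6 control) and 1.09 (day 0), and ELOVL6 at -0.48 (ATRA), -0.28 (9cRA), 0.30 (day 6 control) and 1.55 (day 0).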

How the data were processed

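RNA of 4 groups of bovine intramuscular preadipocytes was measured on 12 one-colour (Cy3) oligonucleotide arrays. Total RNA (100 ng) was amplified from a poly-dT primer, per the labels' protocols. Such priming favours the 3′ end of transcripts. The authors deposited each array's spot intensity on a linear scale. Per the file headers, it is the background-subtracted processed signal of Feature Extraction 10.7.3.1, with no normalization between arrays. A second deposited file gives log2 values, averaged within groups. For 90.4% to 97.7% of probes per group they lay within 0.01 of the group mean recomputed from the arrays after 75th percentile scaling, with the median of each probe taken off. Scale, centring and direction were read from that match. The other probes differed more (correlations 0.935 to 0.992, column medians -0.01 to 0.02), for reasons not given in the sources used here.

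From the intensities, control spots and 191 outlier spots were left out, log2 was taken, and the array's 75th percentile (1094 to 1359) was subtracted. No spot was saturated. Replicate spots were averaged by probe, and the brightest probe stood for its gene. Of 43653 probes, 26743 were named by accession through a RefSeq gene table of ARS-UCD2.0 (names only), 5971 by current and 141 by older symbol, and 10798 kept the file's name. Genes with all 3 arrays of some group well above background were tested with limma 3.58.1 (lmFit, eBayes, two-sided) in R 4.3.3 over all 12 arrays. A gene not well above background in a group has a bound there: the bright mean was set against a floor, averaged over the dim arrays, that is the larger of the array's lowest signal well above background and the probe's own. The number of arrays limits the precision, and median SDs between arrays were 0.08 (ATRA), 0.09 (9cRA), 0.12 (day 6 control) and 0.06 (day 0).

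The members and lists were chosen with earlier results of these data known. All members are named. From each list, up to 3 called genes with the smallest adjusted p per comparison could be named, and always SREBF1, SREBF2, INSIG1, NR1H3, MLXIPL, THRSP, ACACB, ME1 and SLC25A1. Some genes that these rules take are not reported here. Genes most like SCD, SCD5 and FASN are the top 3 by r. On simulated data with 200 of 17704 genes changed, limma recovered 79.1% (day 6 control against day 0), 71.6% (ATRA against day 6 control), 68.7% (9cRA against day 6 control) and 73.1% (ATRA against 9cRA) of the 1.5-fold changes. The simulation had no slide effect. In the data, the first 3 of these comparisons called 62.4%, 46.2% and 46.5% of genes, so these rates need not hold there. The alternatives were normexp, median, quantile and cyclic loess scaling, other filters, the mean of a gene's probes or single probes, slide or array number as a block, only 2 groups in the fit, and leaving out each array.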

Additional observations from a re-analysis of the deposited data

How the results depend on the processing

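Day 6 control against day 0 called all 10 members, and each retinoid against day 0 called 9 or 10, under every setting tried. Leaving out single arrays gave 10 to 10 members for day 6 control against day 0, 4 to 7 (ATRA against day 6 control, 7 in the full fit), 3 to 4 (9cRA against day 6 control, 5 in the full fit) and 0 to 2 (ATRA against 9cRA, 2 in the full fit). For ATRA against day 6 control, a fit of only the 2 groups called 4 members. For 9cRA against day 6 control, 3 members were called with median scaling, with no filter, with the mean over a gene's probes and with slide as a random block. For ATRA against 9cRA, 1 member was called with each of these 4 and with slide as a block, and 0 with only the 2 groups in the fit or with array number as a replicate block. With that block SCD was at adjusted p = 0.087 and FADS2 at 0.11. Same-numbered arrays of different groups did not deviate together (correlations of deviations -0.20 to 0.10, median -0.03). Differently numbered arrays gave -0.10 to 0.25, with a median of 0.02. No sign of pairing by number was thus seen, but deviations from means of 3 arrays cannot exclude it. ACACA turned from 0.35 to -0.12 for 9cRA against day 6 control with slide as a block. The cause of these changes was not tested. The 21 genes called between the retinoids became 34 (normexp), 32 (quantile), 14 (median scaling), 4 (no filter), 40 (only genes well above background on all arrays), 47 (single probes), 35 (slide as a block), 5 (slide as a random block), 2 (only the 2 groups, or array number as a block) and 0 to 27 without single arrays. FASN, SCD and ELOVL6 with 9cRA, and FASN and ELOVL6 with ATRA, kept their direction and call in all 24 settings. The brightest probe of every member was well above background on all arrays, though those of FADS1 and ACACA were low in signal. Signal over background limits other probes of ACSS2, ACACA, FASN, SCD5, FADS2 and FADS1.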
